A study of Mus musculus with 8 samples.

Results

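The DNA replication and G1/S genes are 49 mouse genes that carry out or control the start of DNA synthesis. They were chosen by gene symbol, as members of the pathway, with earlier results of these data known. A value was taken for 48 of the 49, out of 19938 genes with a value, from the brightest probe set that the platform annotation gives to that symbol alone. Cdkn1a was not analysed here, because its 1 probe set is also assigned to a second gene. All 48 measured genes passed the filter on dim genes, which required a log2 signal of 7.85 on at least 2 of the 8 arrays and left 11128 genes for testing. The probe set of Ccnd1 lay at the filter, between 7.47 and 8.01 over the 8 arrays. Ccnd1 and Gmnn (7.56 to 7.80) were below the filter value on all RORγt arrays and passed through SRC-3 arrays.

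RNA was measured in mouse T helper 17 (Th17) cells, the CD4 T cells that make interleukin 17. Naive CD4 T cells had been activated through CD3 and CD28 and differentiated with IL-1, IL-6 and IL-23, a cocktail that the labels describe as giving pathogenic Th17 cells. In the first experiment, SRC-3-deficient cells, whose source mice are labelled SRC-3 (f/f), were set beside cells of SRC-3 WT mice. In the second, RORγt-deficient cells of RORgt (-/-) mice were set beside cells of RORgt WT mice. SRC-3, encoded by Ncoa3, is a coactivator recruited by nuclear receptors, and RORγt is the nuclear receptor that directs Th17 differentiation. Each of the 4 groups held 2 arrays that the labels call biological replicates. The Cre line for an (f/f) allele and the age and sex of the mice are not given in the sources used here. Nor do they say whether the replicates came from separate mice, which the sex-linked genes below answer for the SRC-3-deficient group alone. A p-value here describes only how far these samples vary, which outside that group may be technical. Bulk RNA cannot tell fewer cells in S phase from less RNA of these genes per cell.

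Before a cell replicates its DNA, the origin recognition complex, Cdc6 and Cdt1 load the Mcm helicase onto origins, and Cdc45 and the GINS complex then activate it. Cyclin D with Cdk4 or Cdk6, and cyclin E with Cdk2, release E2F transcription factors from the retinoblastoma proteins, and E2F switches on many of the genes described here. In T cells this programme starts after activation through the T cell receptor, and the inhibitors encoded by Cdkn1b (p27) and Cdkn2c (p18) hold it back.

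The labels and the cell type were checked first. T cell markers stood at mean log2 signals of 12.78 to 13.29 on the 8 arrays. Markers of B cells, myeloid cells and NK cells stood at means of 4.95 to 7.06, and of the 12 with a value 1 B cell gene alone passed the filter and was tested, without passing the threshold in either comparison. Of the CD8 T cell markers, Cd8b1 was at 8.91 and 8.75 in the SRC-3-deficient cells and at 8.54 and 8.29 in their wild type, so the groups did not overlap, and its log2 fold change was 0.42 (limma adjusted p = 0.133; unadjusted p under 0.05). Cd8a lay below the filter, between 7.06 and 7.29. The part of CD8 T cells in the results was not tested. Ncoa3 was at 11.15 and 10.97 in the SRC-3-deficient cells and at 11.76 and 11.53 in their wild type, and its log2 fold change of −0.58 missed the threshold (limma adjusted p = 0.0567). The gene of RORγt was not analysed here, but of its known targets Il17a and Il23r fell in the RORγt-deficient cells, with log2 fold changes of −4.11 and −3.23 (limma adjusted p = 4.86e-05 and 4.87e-05). Of the 5 Th17 markers, Il17f and Ccr6 also passed as lower. Rora did not (−0.02, limma adjusted p = 0.949). In the SRC-3 comparison 4 of the 5 were below 0 (median −0.68), and Il17f alone passed. Both RORγt-deficient arrays carried RNA of the Y-linked Eif2s3y (10.47 and 10.48) and little of the X-linked Xist (6.37 and 6.08), while their wild type had the reverse, so genotype and sex cannot be told apart in that experiment. In the other experiment, SRC-3-deficient replicate 1 alone had this pattern (Eif2s3y 11.16, Xist 7.10). SRC-3-deficient replicate 2 had the reverse (Eif2s3y 4.87, Xist 13.60), so the RNA of these 2 arrays did not come from the same mouse. In each other group both arrays had the same pattern, which does not settle whether they came from separate mice. Among the 48 genes only Pola1 is X-linked.

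Most of these genes were strongly expressed. Cyclin D2 (Ccnd2) stood between 13.42 and 13.74 over the 8 arrays, Cdk4 between 13.00 and 13.29, Cdk6 between 12.96 and 13.33, and the sliding clamp Pcna between 12.86 and 13.25. Cyclin D3 (Ccnd3) lay between 12.08 and 12.63, cyclin E1 (Ccne1) between 10.87 and 11.26, the helicase subunit Mcm2 between 11.77 and 12.06, and the loader Cdc6 between 9.37 and 10.15. These are log2 signals of different probe sets, so they are not compared between genes.

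**Figure D1:**
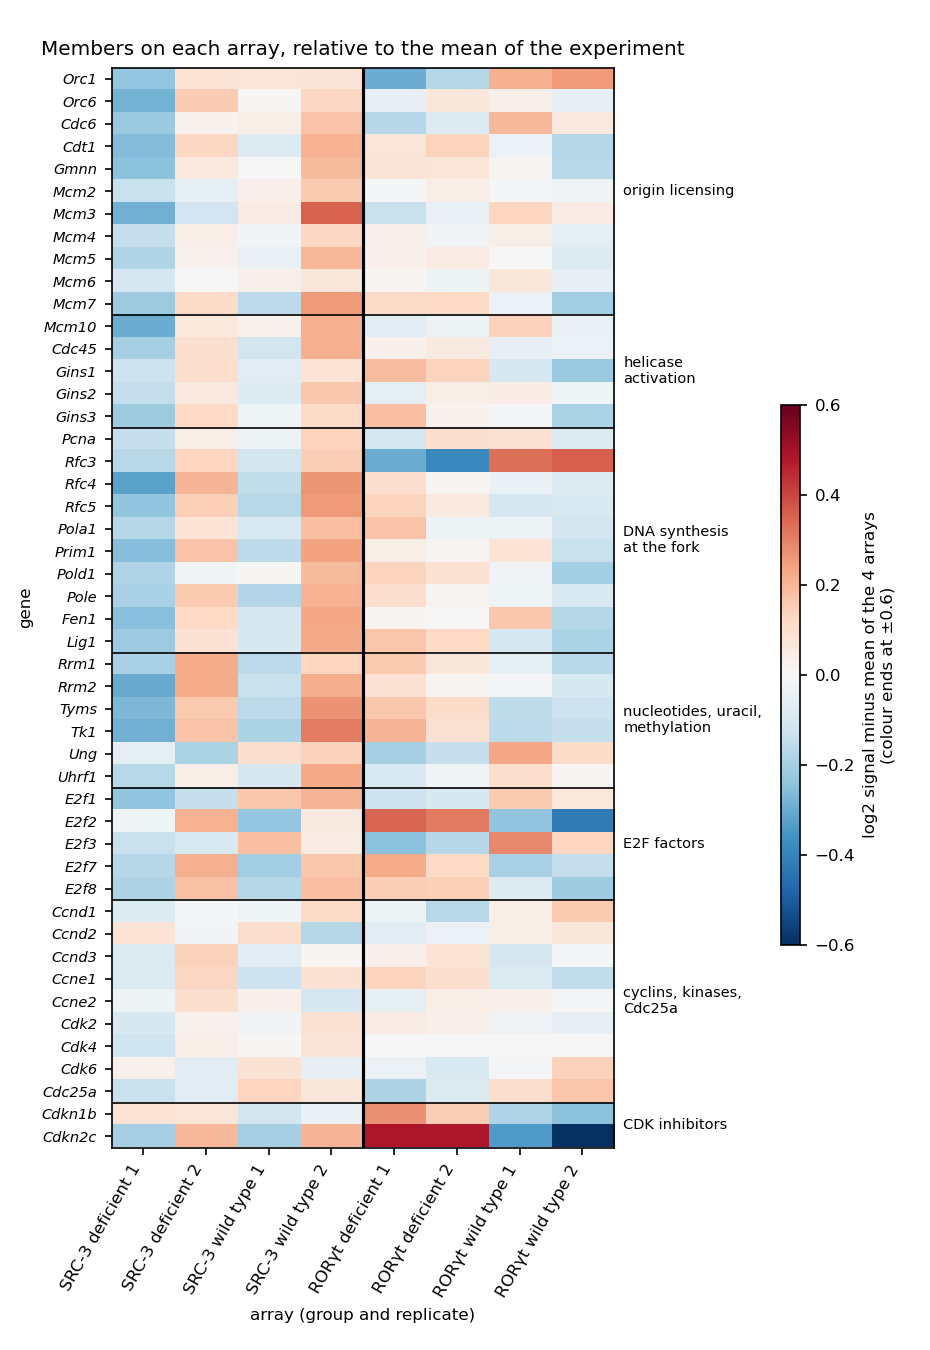
Log2 signal of each of the 48 genes (rows, grouped by role) on each of the 8 arrays (columns), minus the mean of the 4 arrays of that experiment; the colour ends at ±0.6. SRC-3-deficient replicate 1 is the lowest of its 4 arrays for 40 genes and SRC-3 wild-type replicate 2 the highest for 32. In the RORγt experiment Cdkn2c and E2f2, which rose, and Rfc3 and Orc1, which fell, have the largest changes.

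E2F binds the promoters of many replication genes, and the promoter sequences of these genes carried the letters of its site. RefSeq promoters of GRCm38.p6, 300 bases long with 250 before the start and 50 after it, were found for 40 of the 48 genes. They were searched on both strands for TTTCCCGC, TTTCGCGC, TTTGCCGC and TTTGGCGC. At least 1 match was present in 18 of 40 genes (45.0%), against 3.29% of 17492 protein-coding genes and 2.61% of all 27025 genes with a promoter of that length. Median GC content was 61.3% in the promoters of these 40 genes and 56.3% in those of protein-coding genes. By role, the genes that license origins held a match in 7 of 9. The E2F factors held one in 3 of 5, the genes of DNA synthesis at the fork in 4 of 9 and the CDK inhibitors in 0 of 2. Helicase-activation genes held one in 1 of 3, and cyclins, kinases and Cdc25a in 2 of 6. For nucleotide supply, uracil removal and methylation it was 1 of 6. Genes of mitosis, a later stage of the cycle, held a match in 1 of 21. The pentamer CCAAT, searched on both strands, was present in 26 of the 40 genes (65.0%), in 17 of 21 mitosis genes and in 42.3% of protein-coding genes. These are matches of letters and not measured binding.

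The stretches below are shown because they belong to the 4 genes that fell without RORγt and held a match, and to Mcm6, whose promoter held 3 matches; capitals mark the E2F motif, and each reads 5′ to 3′ on the strand of its gene. Orc1 lies at chr4:108579387-108579453 (plus strand), Rfc3 at chr5:151651209-151651258 (minus strand), E2f3 at chr13:29986064-29986114 (minus strand), Cdc25a at chr9:109875472-109875559 (plus strand) and Mcm6 at chr1:128359706-128359855 (minus strand), all upstream of the annotated start.
Orc1: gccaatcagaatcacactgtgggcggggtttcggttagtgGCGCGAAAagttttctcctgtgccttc
Rfc3: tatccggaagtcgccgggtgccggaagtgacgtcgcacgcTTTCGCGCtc
E2f3: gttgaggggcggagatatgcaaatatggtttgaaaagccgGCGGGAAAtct
Cdc25a: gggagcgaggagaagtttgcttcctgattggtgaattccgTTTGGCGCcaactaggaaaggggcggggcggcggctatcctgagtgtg
Mcm6: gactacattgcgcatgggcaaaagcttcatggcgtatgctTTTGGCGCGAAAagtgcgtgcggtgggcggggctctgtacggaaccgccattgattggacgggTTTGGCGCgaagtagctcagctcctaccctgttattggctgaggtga
In Mcm6, the first capital run holds TTTGGCGC on the gene's strand overlapped by TTTCGCGC on the other strand. Rfc3 held a second match, to TTTCCCGC on the other strand, that begins at its start site and is not shown. E2f2, which rose without RORγt, also held a match, after its start, and Ung and E2f1, which fell, held none. E2f3 had 2 promoters, of which 1 held the match.

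The first comparison asked what the loss of SRC-3 does to these transcripts. None of the 48 genes passed the threshold of a limma adjusted p of 0.05, where 25 of 11128 genes (0.225%) did. At an unadjusted p under 0.05 there were 7 genes, against 12.5% of all genes. The values nevertheless leaned one way. The log2 fold change of deficient over wild type was below 0 for 40 of the 48 (83.3%), against 42.8% of all genes, and its median was −0.10, against 0.02 over all genes. The arrays of the deficient cells lay entirely below those of the wild type for 9 genes (all genes 14.3%) and entirely above for 1 (all genes 23.0%). The 9 were Cdc6, Mcm2, Mcm3, Mcm6, Pold1, Ung, E2f1, E2f3 and Cdc25a, and the 1 was Cdkn1b.

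The sign of this median depended on which arrays were in the fit. Without SRC-3-deficient replicate 1, the array with the male pattern, the median became 0.04 and 29 of 48 genes were above 0. Without SRC-3 wild-type replicate 2 it became 0.02, with 26 above 0. Without SRC-3-deficient replicate 2 it was −0.23, and without SRC-3 wild-type replicate 1 it was −0.20. In each of these fits 0 of the 48 genes passed the threshold. Leaving out 1 array also leaves unequal replicate numbers in the groups, and replicate 1 was the lower array for most of these genes in both groups. Between arrays of the same number, the deficient array was the lower one in both pairs for 35 of 48 genes (72.9%), against 26.5% of all genes, and the higher one in both for 4 (8.33%), against 39.6%. This count was added after the data had been seen, and the labels do not say that a number pairs the arrays.

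E2f1, the activator E2F, had the smallest p. Its log2 signal was 10.00 and 10.09 in the SRC-3-deficient cells and 10.40 and 10.44 in the wild type. The groups did not overlap, and the log2 fold change was −0.37 (SE 0.06, limma adjusted p = 0.0726). Mcm3, a subunit of the helicase, was at 10.99 and 11.17 against 11.33 and 11.64. The change was −0.40 (SE 0.11, limma adjusted p = 0.192). Ung, which removes uracil from DNA, was at 8.97 and 8.84 against 9.13 and 9.17 (log2 fold change −0.24, limma adjusted p = 0.243). Cdc25a, the phosphatase that activates Cdk2, was at 10.97 and 11.04 against 11.23 and 11.17 (log2 fold change −0.20, limma adjusted p = 0.287). In all 4 genes both deficient arrays were the lower ones, and none of the 4 passed the threshold.

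By role, the 11 licensing genes, the licensing inhibitor Gmnn (−0.19) among them, had log2 fold changes of −0.40 to −0.10. The 5 helicase-activation genes had −0.24 to −0.02 and the 10 genes of the fork −0.19 to −0.03. All 26 were below 0. The genes of nucleotide supply, uracil removal and DNA methylation ranged from −0.24 to 0.03. Cyclins, kinases and Cdc25a ranged from −0.20 to 0.07, with 4 of 9 above 0. Of the genes named by their function, Cdc6 was at −0.21, Mcm2 at −0.19, Pcna at −0.10, Ccnd2 at 0.07, Ccnd3 at 0.06, Ccne1 at 0.04, Cdk4 at −0.08 and Cdk6 at −0.04. The inhibitor Cdkn1b was at 11.66 and 11.65 against 11.47 and 11.54, a difference of 0.15 on the log2 scale (limma adjusted p = 0.398). Cdkn2c was at 9.50 and 9.89 against 9.50 and 9.90, with both groups spanning the same range.

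The 95% confidence intervals are those of the fit, which estimates a common spread per gene over both experiments. The median SD of the 48 genes within groups was 0.178 for SRC-3 and 0.0636 for RORγt. The SRC-3 intervals can therefore be too narrow for these genes, and larger changes are not excluded. In the SRC-3 comparison 47 of 48 intervals lay within a 1.5-fold change either way and 48 of 48 within a 2-fold change. The lowest bound was −0.66 (Mcm3) and the highest 0.46 (E2f2).

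**Figure D2:**
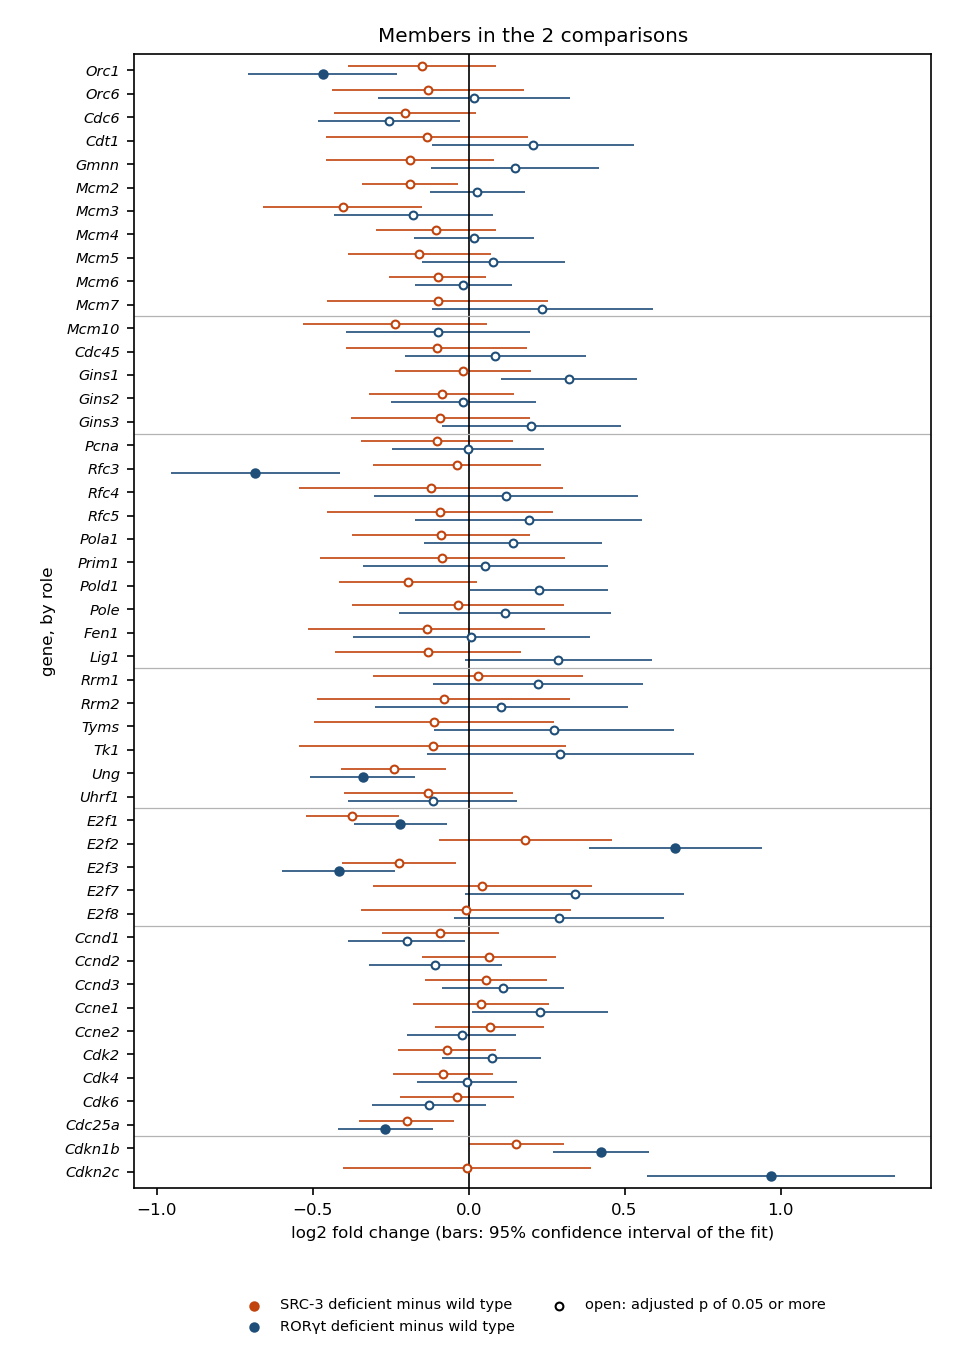
Log2 fold change of each of the 48 genes (rows, by role) for SRC-3 deficient minus wild type (orange) and RORγt deficient minus wild type (blue), with 95% confidence intervals of the limma fit as bars; filled points passed an adjusted p of 0.05. All orange points are open, and 9 blue points are filled, with Cdkn2c at 0.97 farthest right and Rfc3 at −0.68 farthest left.

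The 2 arrays of a group differed more for these genes than for others in the SRC-3 experiment. The array labelled replicate 1 was below that labelled replicate 2 for 44 of 48 genes in the SRC-3-deficient cells (all genes 57.8%) and for 43 of 48 in their wild type (all genes 54.6%). The median gap was 0.24 and 0.20 on the log2 scale. In the RORγt experiment the counts were 21 of 48 in the deficient cells and 13 of 48 in the wild type (all genes 50.8% in both), with median gaps of −0.01 and −0.08. The median SD of a pair was 0.168 and 0.159 for these genes in the SRC-3-deficient and wild-type cells, against 0.0678 and 0.0735 over all genes. In the RORγt experiment it was 0.0409 and 0.0631, against 0.0438 and 0.0457.

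Cdkn2c went from 9.50 to 9.89 and from 9.50 to 9.90 between the replicates of the SRC-3 experiment. Its RORγt-deficient arrays were nearly equal at 10.04 and 10.05, and its RORγt wild-type arrays were at 9.22 and 8.93, a gap in the other direction. The mitosis genes Prc1, a spindle midzone protein, and Ccnb2, a mitotic cyclin, showed the same order of replicates. Prc1 was at 10.63 and 11.05 in the SRC-3-deficient cells and at 10.49 and 11.02 in their wild type. Ccnb2 was at 12.33 and 12.88 and at 12.09 and 12.73. What set the replicates apart was not tested.

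**Figure D3:**
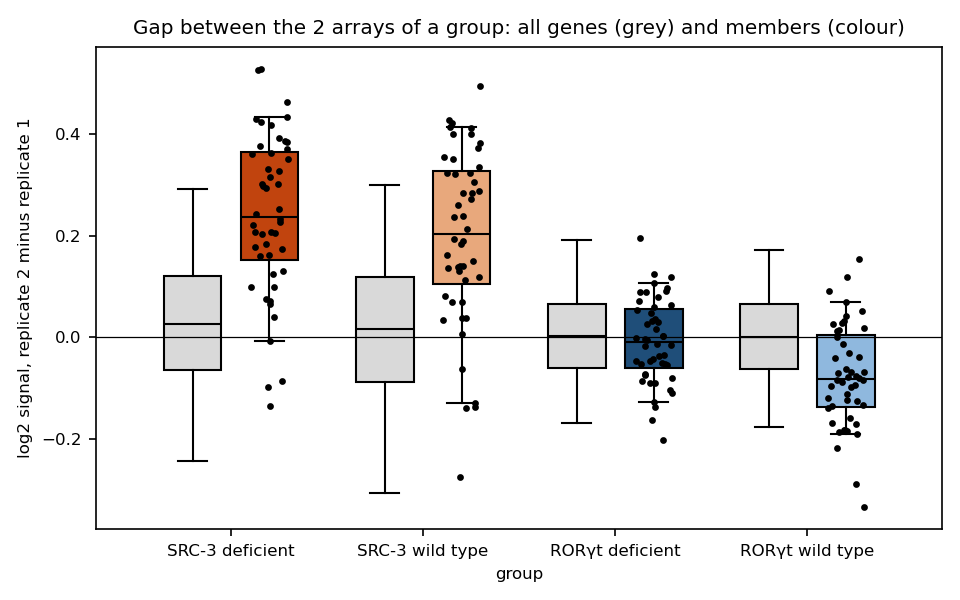
Log2 signal of replicate 2 minus replicate 1 (vertical axis) in each of the 4 groups, for all 11128 genes (grey boxes) and the 48 replication and G1/S genes (coloured boxes, 1 point per gene); boxes span the quartiles, the line is the median and whiskers reach the 5th and 95th percentiles. The coloured medians are 0.24 and 0.20 in the SRC-3 experiment and −0.01 and −0.08 in the RORγt experiment.

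The second comparison asked what the loss of RORγt does to the same transcripts. Of the 48 genes, 9 passed the threshold (18.8%), a share near that of all genes in this fit (2157 of 11128, 19.4%). The inhibitors Cdkn2c and Cdkn1b and the activator E2f2 rose (3 of 48; all genes 10.0%). Rfc3, Orc1, E2f3, Ung, Cdc25a and E2f1 fell (6 of 48; all genes 9.37%). At an unadjusted p under 0.05 there were 14 genes, against 34.6% of all genes. The median log2 fold change was 0.08 (all genes 0.00), with 30 genes above 0 and 18 below (all genes 49.6% below). It stayed between 0.05 and 0.10 with any 1 array left out. The groups did not overlap for 38 genes, 25 higher and 13 lower (all genes 35.8% and 34.2%, or 70.0% in all). How the share that passed stood to that of all genes depended on the fit. With the 4 RORγt arrays alone it was 41.7%, against 30.5%, and with array weights 29.2%, against 33.1%.

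Of the CDK inhibitors, Cdkn2c, which binds Cdk4 and Cdk6, had the largest change of the 48 genes. It was at 10.04 and 10.05 in the RORγt-deficient cells and at 9.22 and 8.93 in their wild type. Both deficient arrays lay above both wild-type arrays, and the log2 fold change was 0.97 (1.96-fold, SE 0.17, limma adjusted p = 0.00911). Cdkn1b, which binds cyclin E with Cdk2, was at 12.10 and 11.97 against 11.64 and 11.58. It rose by 0.42 on the log2 scale (1.34-fold, SE 0.07, limma adjusted p = 0.00642).

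The E2F factors moved in both directions. E2f2 was at 10.97 and 10.94 in the RORγt-deficient cells and at 10.39 and 10.20 in the wild type, a rise of 0.66 (1.58-fold, SE 0.12, limma adjusted p = 0.00973). E2f3, like E2f1 and E2f2 an activator, was at 9.85 and 9.93 against 10.38 and 10.22, a fall (log2 fold change −0.42, SE 0.08, limma adjusted p = 0.0116). E2f1 was at 10.18 and 10.21 against 10.46 and 10.36, and its log2 fold change of −0.22 (SE 0.06) was the called change nearest the threshold (limma adjusted p = 0.0499). Of the activators, E2f2 thus rose while E2f1 and E2f3 fell in the same cells. The repressors E2f7 and E2f8 were at 0.34 and 0.29 without passing (limma adjusted p = 0.155 and 0.202).

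Of the 11 licensing genes, Orc1, the largest subunit of the origin recognition complex, was the 1 that passed. It was at 8.86 and 8.98 without RORγt and at 9.37 and 9.41 with it. The groups were well apart, and the log2 fold change was −0.47 (SE 0.10, limma adjusted p = 0.0196). The other 10 lay between −0.26 (Cdc6, limma adjusted p = 0.108) and 0.24 (Mcm7). The 6 Mcm2 to Mcm7 subunits, which form 1 ring, ranged from −0.18 (Mcm3) to 0.24 (Mcm7), and Mcm2 was at 0.03.

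Among helicase-activation genes 0 of 5 passed. Gins1, a GINS subunit, lay just outside the threshold. It was at 9.60 and 9.55 against 9.31 and 9.19, a difference of 0.32 (SE 0.09, limma adjusted p = 0.0500017). No other uncalled gene of the 48 lay as near.

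At the fork, Rfc3, a subunit of the loader that places the Pcna clamp on DNA, was at 10.82 and 10.73 in the RORγt-deficient cells and at 11.45 and 11.47 in the wild type. It fell by 0.68 on the log2 scale (SE 0.12, limma adjusted p = 0.00825). Rfc4 and Rfc5, which belong to the same complex, were at 0.12 and 0.19 (limma adjusted p = 0.693 and 0.432). Pcna itself was at 13.05 and 13.25 against 13.24 and 13.07, with overlapping groups and a log2 fold change of −0.00. The remaining 6 genes of the fork lay between 0.01 (Fen1) and 0.29 (Lig1).

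Among genes of nucleotide supply and DNA maintenance, Ung was the 1 of 6 that passed. It was at 8.91 and 8.97 against 9.34 and 9.22, a log2 fold change of −0.34 (SE 0.07, limma adjusted p = 0.0180). Rrm1, Rrm2, Tyms and Tk1, which make deoxynucleotides, lay between 0.11 and 0.29 and did not pass.

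Of the cyclins, kinases and Cdc25a, only Cdc25a passed. It was at 10.72 and 10.83 against 11.00 and 11.07, a log2 fold change of −0.27 (SE 0.07, limma adjusted p = 0.0285). Ccnd2 was at −0.11, Ccnd3 at 0.11, Ccne1 at 0.23 (limma adjusted p = 0.131), Cdk6 at −0.13 and Cdk2 at 0.07. Cdk4 was nearly equal on the 4 arrays, at 13.28 and 13.28 against 13.29 and 13.29. In the RORγt comparison the 95% intervals of 37 of the 48 genes lay within a 1.5-fold change either way. Within a 2-fold change lay 47, Cdkn2c being the exception. These intervals use the same spread, common to both experiments.

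**Figure D4:**
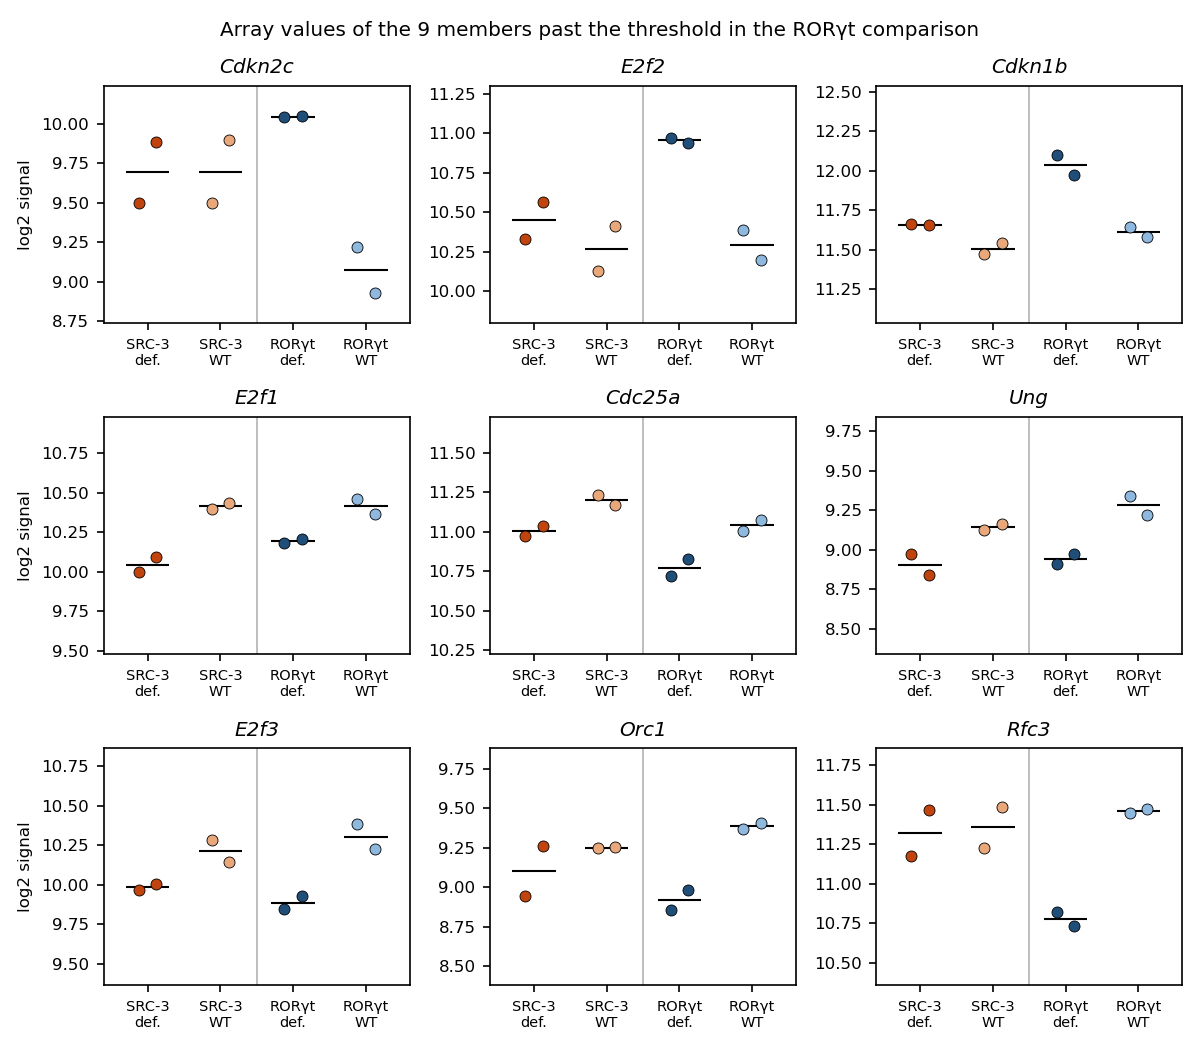
Log2 signal on each of the 8 arrays (points, 2 per group) and group means (lines) for the 9 genes past the threshold in the RORγt comparison; every panel spans 1.5 log2 units and the grey line divides the experiments. In each panel the RORγt-deficient points lie apart from their wild type, with Cdkn2c 1.96-fold higher, and Cdkn2c differs between replicates in both SRC-3 groups (9.50 against 9.89 and 9.90).

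The calls in the RORγt comparison depended on each of its 4 arrays. With RORγt-deficient replicate 1 left out, 0 of the 48 genes passed by limma, and 9 had an unadjusted p under 0.05. Without RORγt-deficient replicate 2, 4 passed, and without RORγt wild-type replicate 1 or 2, 3 and 1 passed. A group then has 1 array that is assumed to vary like the others, and over all genes the counts fell from 2157 to between 486 and 1001. Directions of the 9 genes held in each of the 17 alternatives that gave a value, but most of these could not change them. Filters, prior, weights, the replicate block and left-out SRC-3 arrays do not alter the log2 fold change. Groups that do not overlap, as for all 9, also keep their direction with 1 array left out. E2f1 missed the threshold in 9 of them, including no filter on dim genes and both other normalizations. A fit on the 4 RORγt arrays alone called 20 of the 48 genes (41.7%, 13 higher and 7 lower), against 30.5% of all genes. With array weights 14 were called (29.2%, 7 higher and 7 lower), against 33.1%.

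A second probe set existed for Cdkn1b, E2f3, Pcna and Tk1. In the RORγt comparison the second probe set gave 0.33 for Cdkn1b (limma adjusted p = 0.0964) and −0.32 for E2f3 (limma adjusted p = 0.0763), the same directions without passing. These p-values come from a fit without the filter on dim genes, so they are adjusted over more genes than the main calls. For Tk1 it gave 0.31 and for Pcna −0.01.

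The experiments share no arrays, so the changes can be set against each other. The difference of the comparisons passed the threshold for 0 of the 48 genes by limma, against 186 of 11128 (1.67%), and 6 of the 48 had an unadjusted p under 0.05 (all genes 17.3%). The largest difference was that of Cdkn2c (0.98, limma adjusted p = 0.0993), followed by Rfc3 (−0.65, limma adjusted p = 0.105). A change that passed without RORγt and not without SRC-3 is therefore not shown to differ between them. The sign was the same in both comparisons for 22 of the 48 genes (45.8%), against 63.8% of all genes. Of the 9 genes called without RORγt, 8 had the same sign without SRC-3, against 80.4% of all genes called there. For 5 of the 9 (Ung, E2f1, E2f3, Cdc25a and Cdkn1b) the SRC-3 groups were also apart in that direction, against 48.3% of all called genes.

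Other genes of the pathway were counted in lists by role. Over all genes 10.0% rose and 9.37% fell without RORγt. Of 35 further replication factors 2 rose and 0 fell. These were Top2a, the topoisomerase that untangles DNA (0.56, limma adjusted p = 0.0260), and Donson, a replication fork protein (0.28, limma adjusted p = 0.0322); the list's median was 0.11. Of 27 other G1/S regulators 4 rose and 1 fell, with a median of 0.09. Cdc25b, a phosphatase that activates Cdk1, rose by 0.93, the retinoblastoma relative Rbl1 by 0.47, and the inhibitor Cdkn2d (p19) by 0.42 (limma adjusted p = 0.00814, 0.00738 and 0.00667). Fbxo5, an inhibitor of the anaphase-promoting complex, rose by 0.58 (limma adjusted p = 0.0476). The repressor E2f5 was at 8.35 and 8.48 against 9.06 and 9.06, a fall with a log2 fold change of −0.64 (SE 0.06, limma adjusted p = 0.00145). Of 24 genes of nucleotide supply, chromatin assembly and repair that E2F regulates, 2 fell, the folate enzyme Shmt1 (−0.48) and the CTP synthase Ctps (−0.50; limma adjusted p = 0.0105 and 0.0107); the median was 0.07.

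Genes of mitosis were set beside the genes of replication, with no test of the difference between the lists. Of 25 tested, 8 rose without RORγt, against 10.0% of all genes, and all 25 had both deficient arrays above both wild-type arrays, against 35.8% of all genes, with a median log2 fold change of 0.65 against 0.08 for the replication and G1/S genes. The smallest p values were those of Prc1 (0.97), Cenpf (0.93), Kif11 (0.71) and Bub1b (0.77; limma adjusted p = 0.0152, 0.0248, 0.0252 and 0.0342), which act at the spindle and kinetochore. The count of 8 depended on the fit. It was 25 of 25 with the 4 RORγt arrays alone, 22 with array weights, 11 with a trend and robust prior, 14 without either SRC-3-deficient array and 19 without either SRC-3 wild-type array. Leaving out any 1 RORγt array took it to 0 by limma, with medians of 0.58 to 0.73. The 2 further replication factors were lost in those 4 fits as well, and with the 4 arrays alone 10 of the 35 were called (9 higher, 1 lower). Of the other G1/S regulators, E2f5 passed in all 4 of these fits, Cdkn2d in 3, Rbl1 and Cdc25b in 2, and Fbxo5 in 0, which was also lost with no filter and with a new quantile normalization; Shmt1 and Ctps passed in 1. In the SRC-3 comparison 0 genes passed in any of the 4 lists by limma in the main fit. There 3, 3, 3 and 0 had an unadjusted p under 0.05. The medians there were −0.05, 0.02, −0.09 and 0.07 in the same order, and 24 of the 25 mitosis genes were above 0, against 57.2% of all genes. These medians changed sign with 1 SRC-3 array left out. They ranged from −0.19 to 0.06 for the replication factors, −0.10 to 0.07 for the G1/S regulators, −0.20 to 0.02 for the genes that E2F regulates and −0.18 to 0.35 for the mitosis genes.

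**Figure D5:**
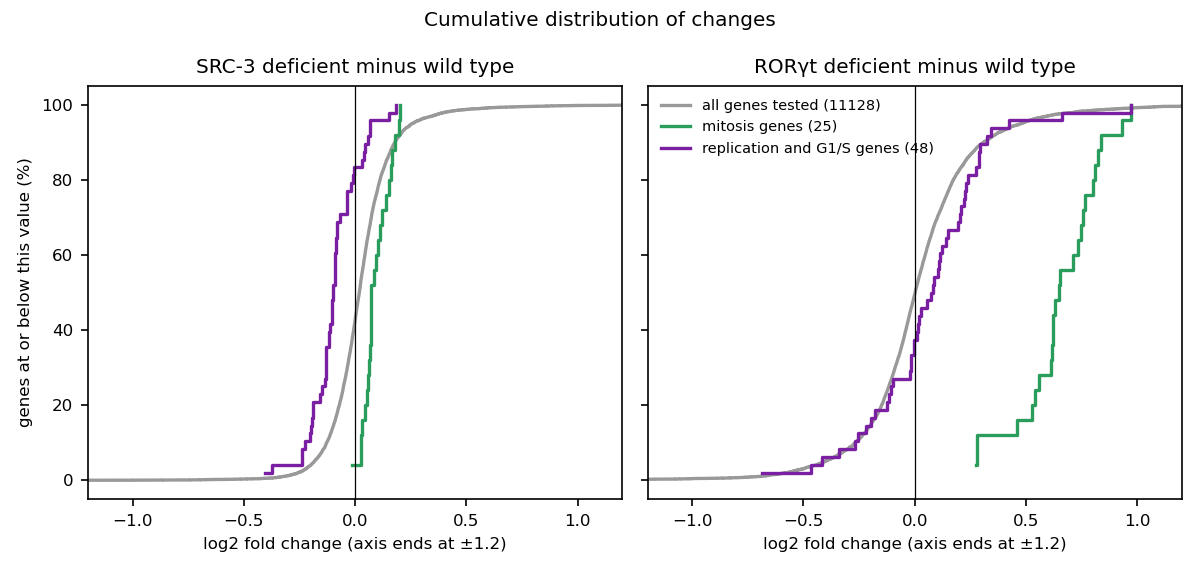
Share of genes (vertical axis, %) at or below each log2 fold change (horizontal axis, ending at ±1.2) in the SRC-3 comparison (left) and the RORγt comparison (right), for all 11128 genes tested, the 48 replication and G1/S genes and 25 mitosis genes. On the left the replication and G1/S genes lie below all genes (median −0.10 against 0.02), and on the right they lie slightly above all genes (0.08 against 0.00) while the mitosis genes have a median of 0.65; the SRC-3 median changes sign with single arrays left out and the RORγt median does not.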

How the data were processed

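Each of 8 RNA samples was hybridised to 1 one-colour Affymetrix Mouse Gene ST array. The authors deposited log2 signals, for which the submitters' processing notes name RMA and Affymetrix Expression Console; no further normalization was applied. Their range was 3.50 to 15.03, and array medians lay between 7.76 and 7.93. Symbols came from the platform annotation, and 48 of 48 gene IDs matched RefSeq.

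The model, run in limma 3.58.1 under R 4.3.3 (lmFit, eBayes), gave each of the 4 groups a mean over 8 arrays. Each gene had a common spread over both experiments. The fit was checked on simulated data with independent noise per array, for the size and direction of large changes. That check did not cover the smaller changes or the intervals reported here. Tests were two-sided with Benjamini-Hochberg adjustment over all 11128 genes and a threshold of 0.05; an SE is that of this fit. Fold changes are deficient minus wild type. The 49 genes and the gene lists were chosen with earlier results of these data known. Described array by array were all genes past the threshold, or the 4 of smallest p where fewer than 4 passed, and a fixed set (E2f1, Ccnd2, Ccnd3, Ccne1, Cdk4, Cdk6, Cdkn1b, Cdkn2c, Cdc6, Mcm2, Pcna) by value or mean change; of each list, at most 4 genes. Gins1, Rfc4, Rfc5 and other genes named beside them were chosen after their values were seen. Alternatives covered normalization, filter, probe sets, arrays in the fit, prior, weights, a replicate block, thresholds and each array left out. The number of arrays limits the precision.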

Additional observations from a re-analysis of the deposited data

Results flagged for a closer look

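For 7 genes named as checks of the labels or in the lists, the change without RORγt differed from the change without SRC-3 by limma's test of the difference. The difference (RORγt log2 fold change minus SRC-3 log2 fold change) was −3.01 for Il17a, −2.33 for Il17f, −2.55 for Il23r and −1.80 for Ccr6, which mark Th17 cells (limma adjusted p = 0.00343, 0.00325, 0.00325 and 0.00596). It was 1.42 for Klf2, a factor of resting T cells, 0.76 for Ncoa3 and −0.66 for the E2F repressor E2f5 (limma adjusted p = 0.00475, 0.0394 and 0.0191). Klf2 was the 1 that passed of 3 naive T cell markers with a value, whose median difference was 0.06 and lowest −0.04. Among the 48 replication and G1/S genes 0 passed this test. Rora, also a Th17 marker, did not pass it either and went the other way (difference 0.39, limma adjusted p = 0.426).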

How the results depend on the processing

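In the SRC-3 comparison 25 genes were called over all genes. The count was 14 with the stricter filter, 0 with the 4 arrays alone (827 at an unadjusted p under 0.05), 47 with a trend and robust prior, 10 with array weights, 0 at a threshold of 0.01 and 129 at 0.1. It ranged from 0 to 61 with 1 array left out. Called replication and G1/S genes numbered 0, and 1 (E2f1) at 0.1. In the RORγt comparison 2157 genes and 9 of the 48 were called. With the 4 arrays alone these were 3389 and 20, with array weights 3679 and 14, and at 0.01 they were 749 and 4; with 1 array left out they ranged from 486 to 2539 and from 0 to 10. For the difference of the comparisons the count of 186 was 119 with the stricter filter, 24 at 0.01, 470 at 0.1 (1 of the 48) and 15 to 264 with 1 array left out. The cause of these shifts was not tested.

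Replicate numbers are shared by the groups, with 2 pairs per experiment. Deviations of same-numbered arrays correlated at 0.54 in the SRC-3 experiment and 0.00 in the RORγt experiment over all genes, and at 0.79 and −0.10 over the 48 genes. With 2 pairs and no label that links the numbers, the pairing is not settled. With the replicate number as a block, 301 genes were called in the SRC-3 comparison, among them Mcm3 and E2f1 (2 of the 48, both lower), and the CD8 marker Cd8b1. Of the other G1/S regulators Cdkn2a was then called as lower, and none in the other pathway lists or the mitosis list. The Th17 markers Il17a, Il17f, Il23r and Rora were called as lower too. In the RORγt comparison 3411 genes (30.7%) and 21 of the 48 (43.8%, 14 higher and 7 lower) were called, and for the difference 945 and 8. Of the mitosis genes 25 of 25 were then called in the RORγt comparison, and of the further replication factors 12 of 35.

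None of the calls of the 9 genes changed direction in any alternative run, though most of the alternatives could not change it. Sign changes occurred among uncalled genes: 51 values of 28 genes in the SRC-3 comparison and 20 values of 9 genes in the RORγt comparison, all uncalled there. The median over the 48 genes in the SRC-3 comparison ranged from −0.23 to 0.04 over single arrays left out, and in the RORγt comparison from 0.05 to 0.10. The median SD of the 48 genes within groups was 0.178 for SRC-3 and 0.0636 for RORγt.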
